A study of Capra hircus with 2 samples.

Results

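The genes followed here across the cell classes of the fetal goat ovary are 8 genes of the granulosa lineage: 3 receptors (FSHR at the cell surface, and the nuclear receptors ESR2 and NR5A2), 2 hedgehog ligands (IHH and DHH), the gap junction protein GJA1, the secreted protease inhibitor SERPINE2 and the creatine synthesis enzyme GATM. They were chosen by symbol, and each of the 8 symbols stood on 1 of the 27271 features in the files. The series profiled ovaries of female goat (Capra hircus) fetuses by droplet single-cell RNA sequencing, with 1 library at stage E85 and 1 at stage E125, where the number is the embryonic day. Its title places the study in the assembly of primordial follicles. Neither group carries a named genetic change or treatment, and the labels used here do not say how many animals went into a library or of which breed. The wet-lab protocol given with both samples speaks of testes, while their tissue and sex labels say ovary and female. Since there is 1 library per stage, no difference below was tested and none has a spread between animals.

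Pregranulosa cells are the somatic cells that surround each oocyte when a primordial follicle forms, and granulosa cells descend from them. FSHR receives follicle-stimulating hormone and raises cyclic AMP in the cell, ESR2 is the estrogen receptor that prevails in granulosa cells, and NR5A2 (LRH-1) is an orphan nuclear receptor that drives genes of steroid synthesis. In the postnatal mouse ovary IHH and DHH are made by granulosa cells and act through PTCH1, SMO and the GLI factors on the surrounding stroma, which gives rise to theca cells. GJA1 (connexin 43) forms the gap junctions between granulosa cells, SERPINE2 inhibits thrombin and plasminogen activators, and GATM makes the creatine precursor guanidinoacetate.

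The files held 4397 barcodes with 17748948 unique molecular identifiers (UMIs, each standing for 1 captured transcript) at E85 and 8346 barcodes with 49692252 UMIs at E125. After filters and doublet removal 3817 and 6982 cells were kept, with median depths of 3108 and 3186 UMIs. Marker genes put 290 cells at E85 and 572 at E125 in a pregranulosa-like class, each of them 1 cluster (cluster 11 at E85 and cluster 12 at E125). Their median depths were 5546 and 7892 UMIs and their median mitochondrial shares 4.99% and 2.84%. FST, a follistatin gene typical of pregranulosa cells, was among the 10 leading genes of both clusters, and the summed level of the 11 pregranulosa markers in the files was 586 CPM (counts per 1000000 UMIs) at E85 and 2630 CPM at E125. No feature carried the symbol FOXL2, a defining marker of the lineage, so it was not analysed here. AMH, a hormone of growing granulosa cells, had 3 UMIs in the class at E85 (1.68 CPM) and 1267 at E125 (182 CPM). Markers of other classes were present too. The 10 germ cell markers summed to 366 CPM at E85 and 382 CPM at E125 with BMP15 at 0 in both, the 10 stromal markers to 363 and 302 CPM, and the 7 surface epithelium markers to 173 and 9.49 CPM with UPK1B and KLK11 at 0 in both. The 10 endothelial markers summed to 264.5 and 152.5 CPM and the 10 perivascular markers to 377 and 288 CPM. The part that these other cells play in the levels below was not tested.

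In pregranulosa-like cells FSHR, GJA1 and SERPINE2 had higher summed levels at E125 than at E85, NR5A2 went from 3 UMIs to 63, GATM was lower, and ESR2 did not differ beyond counting error. For FSHR and SERPINE2 this rested on some of the E125 cells: in the 387 of 572 that held little AMH the ratios to E85 were 0.714 and 0.911. NR5A2 had 27 UMIs in those 387 cells, and its ratio of 2.995 had an interval from 0.922 to 15.4, which includes no change. The hedgehog ligands were next to absent in both libraries. All levels are CPM, the UMIs of a gene summed over the cells of a class, per 1000000 UMIs of that class. They carry 95% intervals that cover counting error only, and since transcript lengths are not known they are compared between cells and not between genes. A gene counted as measured with 50 or more UMIs over the groups compared, and as higher or lower at a ratio of 2-fold. By that rule 1 of the 6 genes measured was higher at E125 (NR5A2) and 0 were lower, against a background in which 13.9% of 7343 measured genes were higher and 11.4% were lower. That share of members is near the background. The median ratio of the 6 was 0.54 on the log2 scale, beside -0.06 for all measured genes.

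**Figure D1:**
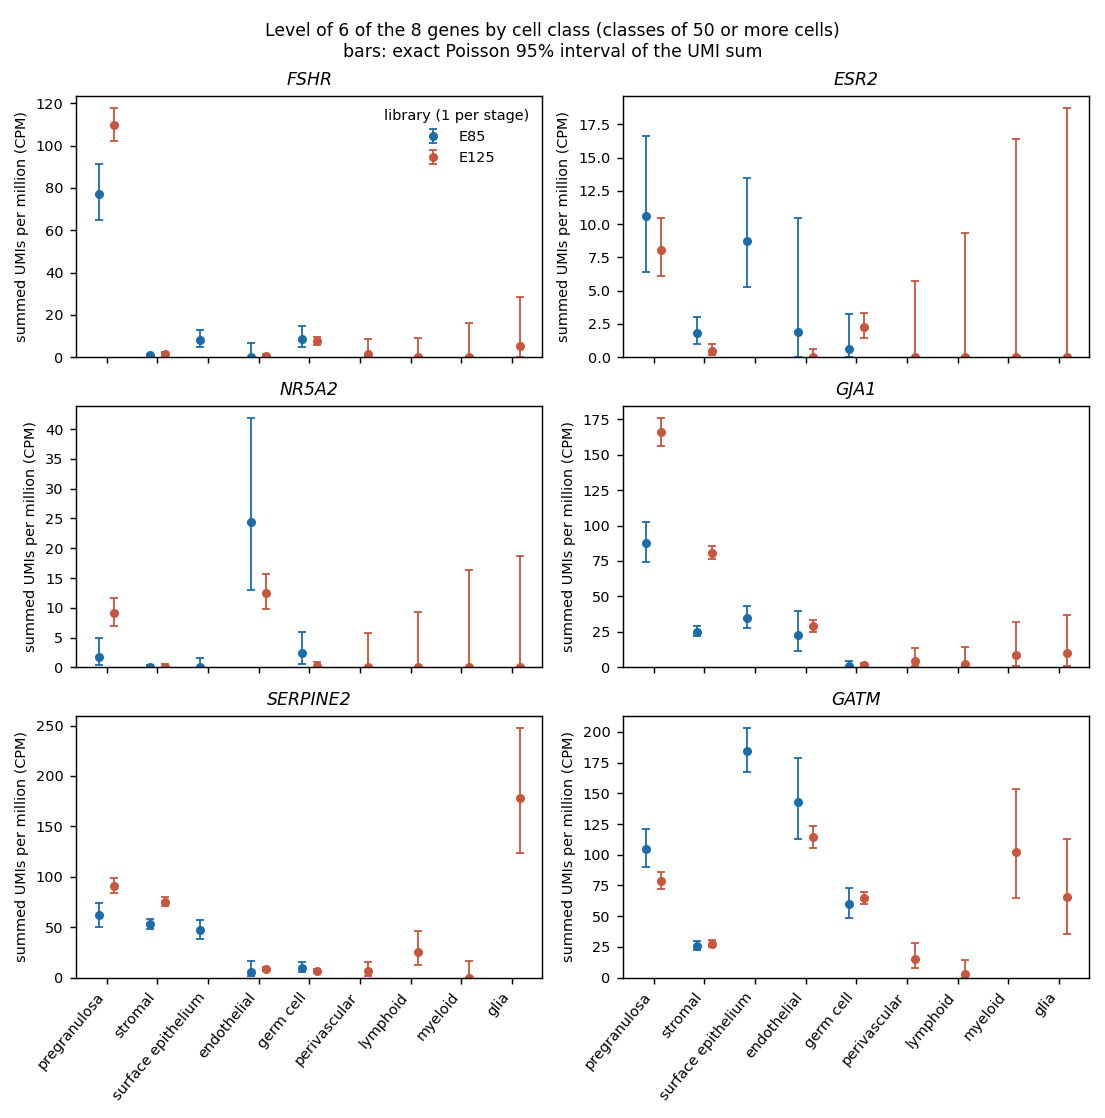
Level of FSHR, ESR2, NR5A2, GJA1, SERPINE2 and GATM (CPM, linear axis) in each cell class of 50 or more cells, at E85 (blue) and E125 (red), with exact Poisson 95% intervals of the UMI sum. FSHR stands far higher in pregranulosa-like cells (77.3 and 109.6 CPM) than in any other class shown, and GATM is spread over several classes. NR5A2 is highest in endothelial-like cells (24.4 and 12.5 CPM), where at E125 its interval overlaps that of pregranulosa-like cells.

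FSHR was found mainly in the pregranulosa-like class. It had 138 UMIs there at E85 (77.3 CPM, interval 65.0 to 91.4) and 762 at E125 (109.6 CPM, interval 102 to 118), a ratio of 1.42 (interval 1.18 to 1.71). Stromal-like cells held 0.853 CPM at E85 and 1.61 CPM at E125, and endothelial-like cells 0 UMIs and 3 UMIs. Among classes of 50 or more cells at E85, germ cell-like (8.82 CPM) and surface epithelium-like cells (8.27 CPM) came next and their intervals overlapped. At E125 the next highest level was in 218 unnamed cells led by cell division genes such as TOP2A (49.2 CPM, interval 38.7 to 61.6), then in 290 unnamed cells led by ERICH3 and CITED1 (46 UMIs, interval 8.06 to 14.7 CPM) and in germ cell-like cells (7.49 CPM).

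When each cell was thinned to 2000 UMIs, which left out 14 cells at E85 and 52 at E125, an FSHR UMI was found in 37 of 276 pregranulosa-like cells at E85 (13.4%, exact binomial interval 9.62% to 18.0%) and in 119 of 520 at E125 (22.9%, 19.3% to 26.7%). Without thinning the share was 29.3% at E85 and 286 of 572 cells at E125. Myeloid-like and lymphoid-like cells, which should lack the receptor, had 0 of 37 at E85 and 0 of 126 at E125, which by the limit of 3 cells allows shares of cells with a UMI of up to 8.11% and 2.38% (exact binomial upper bounds 9.49% and 2.885%). FSHR UMIs were thus in a larger share of pregranulosa-like cells at E125, and in none of the thinned immune cells at either stage.

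ESR2 was sparse. It had 19 UMIs in pregranulosa-like cells at E85 (10.7 CPM, interval 6.41 to 16.6) and 56 at E125 (8.06 CPM, interval 6.08 to 10.5). The ratio of 0.757 had an interval from 0.443 to 1.35, which includes no change. When every cell weighed the same the ratio turned to 1.77, so no direction can be read for ESR2. At E85 surface epithelium-like cells held 20 UMIs (8.70 CPM, interval 5.32 to 13.4), a level that overlapped the pregranulosa-like one. Stromal-like cells were lower at both stages, with 15 UMIs at E85 (1.83 CPM) and 7 at E125 (0.489 CPM). In thinned cells an ESR2 UMI was seen in 2.90% of pregranulosa-like cells at E85 and 2.12% at E125, beside 5.86% and 8.92% without thinning.

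NR5A2 was the member with the largest ratio between stages and also one with few counts. Pregranulosa-like cells had 3 UMIs at E85 (1.68 CPM, interval 0.347 to 4.91) and 63 at E125 (9.06 CPM, interval 6.96 to 11.6), a ratio of 5.39 with an interval from 1.76 to 26.8. All 3 UMIs at E85 lay in a sub-cluster of 67 cells that also carried germ cell and stromal markers, described below. The other 223 cells had 0, and against a floor of 3 UMIs over those cells the E125 level was at least 4.41-fold higher. In thinned cells, where the floor of 3 UMIs stood for the E85 sum, the ratio was at least 2.12. When every cell weighed the same it was 9.58. The highest NR5A2 level of any class was in endothelial-like cells, at 24.4 CPM from 13 UMIs at E85 and 12.5 CPM from 74 UMIs at E125, and their ratio of 0.512 had an interval from 0.282 to 1.01. At E125 the endothelial-like interval (9.83 to 15.7 CPM) overlapped the pregranulosa-like one. The E125 pregranulosa-like cells with AMH, described below, stood at 22.7 CPM (interval 15.9 to 31.4). Stromal-like cells had 0 UMIs at E85 and 2 at E125.

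IHH had 0 UMIs over all 4397 barcodes at E85 and 1 UMI over all 8346 at E125, in a germ cell-like droplet. In pregranulosa-like cells the count of 0 leaves exact Poisson upper bounds of 2.07 CPM at E85 and 0.531 CPM at E125. DHH had 9 UMIs over all barcodes at E85 and 14 at E125. Of the 8 in kept cells at E85, 6 were in surface epithelium-like cells (2.61 CPM, interval 0.958 to 5.68), 1 in endothelial-like and 1 in pregranulosa-like cells. Of the 13 in kept cells at E125, 4 were in the unnamed cells led by ERICH3 and CITED1, 3 in endothelial-like, 3 in glia-like, 2 in pregranulosa-like and 1 in stromal-like cells. The 3 UMIs in the 76 glia-like cells made 15.2 CPM with an interval from 3.14 to 44.5. Desert hedgehog is a known product of Schwann cells. Ligand transcripts in pregranulosa-like cells were thus at or near the limit of detection at both stages, and no fold was computed.

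The receiving side of the hedgehog pathway was readily detected. Of 17 listed pathway genes 7 were measured in pregranulosa-like cells, of which 1 was lower and 0 were higher at E125. The lower gene was PTCH1, the hedgehog receptor and itself a target of the pathway, at 66.1 CPM at E85 and 27.8 CPM at E125 (ratio 0.420, interval 0.332 to 0.532). In stromal-like cells PTCH1 stood at 20.7 CPM at E85 and 43.9 CPM at E125, and in surface epithelium-like cells at E85 at 78.8 CPM. The transcription factor GLI2 was found mainly in stromal-like cells, at 22.5 and 41.6 CPM, beside 1.68 and 0.719 CPM in pregranulosa-like cells. GLI3 stood at 36.5 and 52.0 CPM in stromal-like and at 7.29 and 11.7 CPM in pregranulosa-like cells. GLI1, the target most often used as a readout of the pathway, was low everywhere, at 2.44 and 1.60 CPM in stromal-like cells and 0 and 2 UMIs in pregranulosa-like cells. The co-receptor CDON was also higher in stromal-like (46.2 and 52.1 CPM) than in pregranulosa-like cells (19.6 and 24.6 CPM).

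**Figure D2:**
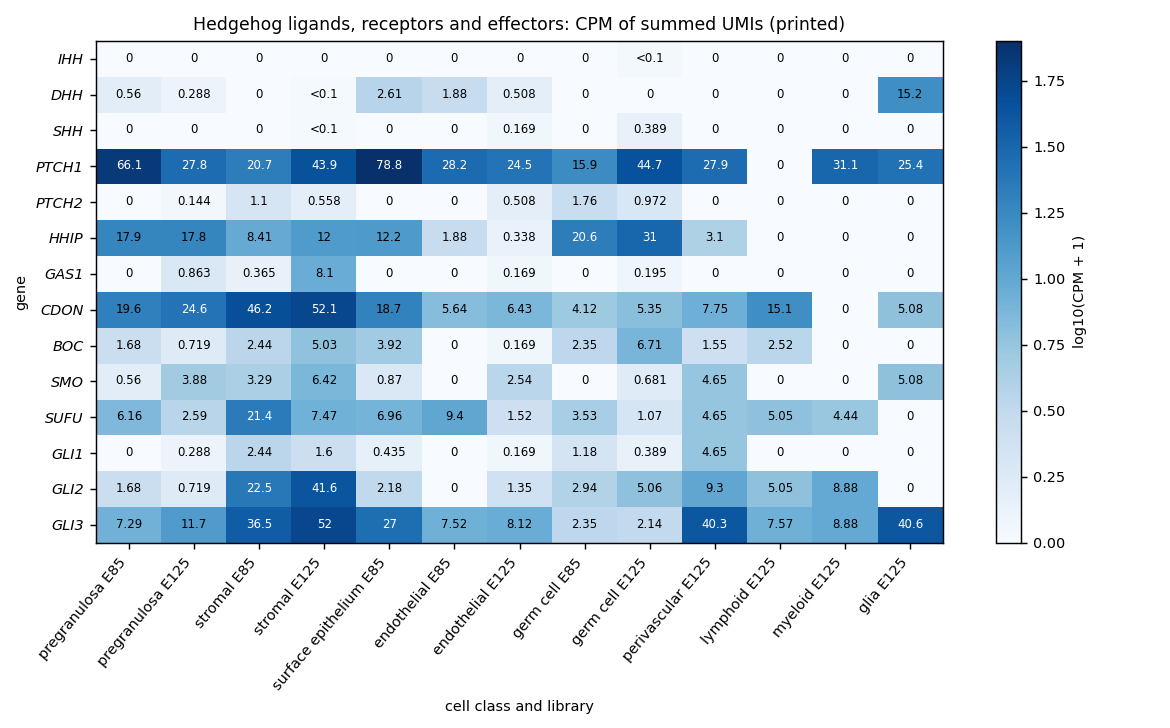
CPM of hedgehog ligands, receptors and effectors (rows) in each cell class and library of 50 or more cells (columns), printed in each field, with colour on a log10(CPM + 1) scale. The ligand rows IHH, DHH and SHH are at or near 0 apart from DHH in glia-like cells (15.2 CPM from 3 UMIs), while PTCH1 is present in most classes and GLI2 and GLI3 stand high in stromal-like cells.

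GJA1 had 156 UMIs in pregranulosa-like cells at E85 (87.4 CPM, interval 74.2 to 102) and 1152 at E125 (166 CPM, interval 156 to 176), a ratio of 1.90 (interval 1.60 to 2.26). This was just under the 2-fold rule, and the ratio was 2.25 under TMM scaling and 3.05 when every cell weighed the same. In thinned cells the share with a GJA1 UMI was 15.2% at E85 and 30.6% at E125, beside 0 of 37 and 0.794% in the immune cells. Unthinned, it was 33.8% and 68.4%. Pregranulosa-like cells had the highest GJA1 level of the classes with 50 or more cells at both stages. The gene was also higher at E125 in stromal-like cells, where it went from 25.2 to 81.0 CPM (ratio 3.21, interval 2.77 to 3.74). It was the 1 gene of the 3 measured in that class past 2-fold, in a class where 17.8% of 10116 genes were higher. Endothelial-like cells held 22.6 and 28.9 CPM, and germ cell-like cells 1.18 and 2.04 CPM.

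SERPINE2 had 110 UMIs in pregranulosa-like cells at E85 (61.6 CPM, interval 50.7 to 74.3) and 635 at E125 (91.3 CPM, interval 84.4 to 98.7), a ratio of 1.48 (interval 1.21 to 1.83). Stromal-like cells went from 53.1 to 75.2 CPM (ratio 1.42, interval 1.27 to 1.59), so the ratios in the 2 classes lay within each other's intervals. At E85 the intervals of pregranulosa-like, stromal-like and surface epithelium-like cells (47.0 CPM) overlapped. At E125 the highest level was in glia-like cells, at 178 CPM from 35 UMIs (interval 124 to 247). Endothelial-like cells were low, at 5.64 and 8.29 CPM. The share of thinned pregranulosa-like cells with a SERPINE2 UMI was 12.0% at E85 and 16.7% at E125 (25.5% and 47.6% unthinned), beside 2.70% and 0.794% in the immune cells.

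GATM was spread over several classes. Pregranulosa-like cells had 187 UMIs at E85 (105 CPM, interval 90.3 to 121) and 549 at E125 (79.0 CPM, interval 72.5 to 85.9), a ratio of 0.754 (interval 0.637 to 0.895). The direction did not hold when each library was clustered on its own (ratio 1.055) or when only sub-cluster 0 of the E85 cells, described below, was used (1.008). In thinned cells the share with a UMI was 20.3% at E85 and 14.8% at E125, beside 37.6% and 42.0% without thinning. Surface epithelium-like cells at E85 stood at 184.5 CPM, above pregranulosa-like cells. Endothelial-like cells held 143 CPM at E85 and 114 CPM at E125, with intervals that overlapped those of the 16 and 67 myeloid-like cells (147 and 102 CPM). Stromal-like cells were low at 25.7 and 27.7 CPM. Lymphoid-like cells held 1 UMI at each stage.

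At E125 the pregranulosa-like cells differed among themselves, and several members differed with AMH. Sub-clustering gave 3 groups, of which 1 with 185 cells held AMH at 553 CPM, beside 67.2 and 78.0 CPM in the other 2 (387 cells together). The sub-clustering and this division were made after the clusters had been seen. Cells with AMH had 466 FSHR UMIs (293 CPM, interval 267 to 321) where the 387 cells with little AMH had 296 (55.2 CPM, interval 49.1 to 61.9), a ratio of 5.31 (interval 4.58 to 6.17). SERPINE2 was 3.74 times as high (210.2 against 56.1 CPM, interval of the ratio 3.20 to 4.39). NR5A2 was 4.50 times as high from 36 and 27 UMIs (22.7 against 5.04 CPM, interval 2.66 to 7.71). Thus 3 of the 6 genes were at least 2-fold higher in cells with AMH, where 5.64% of 6721 measured genes were.

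ESR2 lay on the other side, with 7 UMIs in cells with AMH (4.41 CPM) and 49 in the others (9.14 CPM). Its ratio of 0.482 made it the 1 member counted as lower, where 6.38% of genes were lower, but the interval from 0.184 to 1.07 includes no change. GJA1 (ratio 1.42, interval 1.25 to 1.61) and GATM (1.44, interval 1.19 to 1.73) were higher by less than 2-fold, and the GJA1 ratio turned to 0.835 in thinned cells. The median of the 6 log2 ratios was 1.21, beside -0.01 over all genes. In thinned cells 77 of 166 cells with AMH held an FSHR UMI (46.4%, interval 38.6% to 54.3%) and 42 of 354 with little AMH did (11.9%, interval 8.69% to 15.7%). Median depths were 8350 and 7815 UMIs, but the total UMIs were 1589226 over 185 cells and 5362561 over 387. Deep cells thus weighed more in the sums of the cells with little AMH. When every cell weighed the same, GJA1 stood at 270.5 CPM with AMH and 257.3 CPM with little AMH. Other cells' marker sums are given for cells with AMH and then for cells with little AMH. The germ cell markers summed to 369 and 386 CPM, the stromal markers to 330 and 294 CPM and the perivascular markers to 326 and 277 CPM. The endothelial markers summed to 61.0 and 179.6 CPM, with PECAM1, CDH5, CLDN5, EGFL7 and TIE1 at 0 in cells with AMH. The myeloid markers summed to 23.3 and 3.36 CPM, the lymphoid ones to 17.0 and 6.53 CPM and the surface epithelium ones to 16.4 and 7.46 CPM. The part of these cells in the ratios was not tested.

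**Figure D3:**
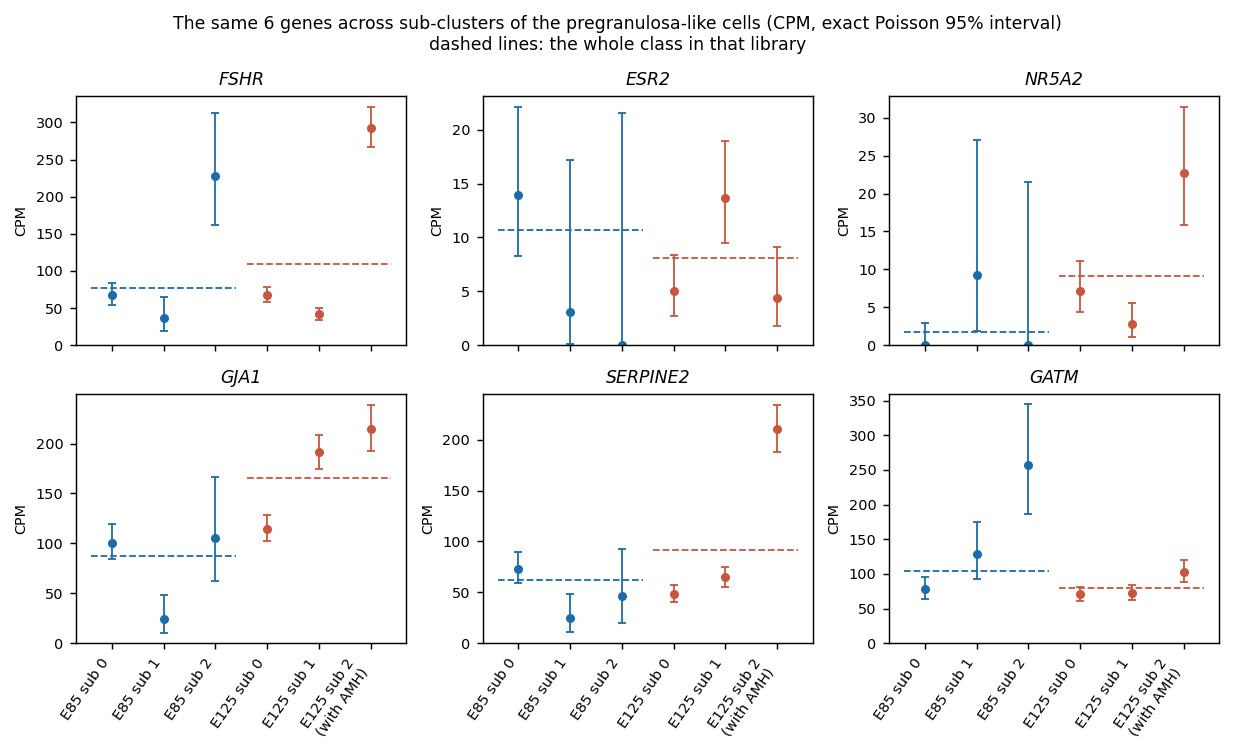
CPM of 6 of the genes in the sub-clusters of pregranulosa-like cells at E85 (blue, sub-clusters 0, 1 and 2) and E125 (red, sub-clusters 0 and 1 with little AMH, 2 with AMH), with exact Poisson 95% intervals; dashed lines give the whole class. FSHR (293 CPM) and SERPINE2 (210.2 CPM) are highest in the E125 cells with AMH, FSHR (228 CPM) and GATM (258 CPM) are high in E85 sub-cluster 2, and ESR2 is highest in E85 sub-cluster 0 and E125 sub-cluster 1.

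The difference between stages depended on these cells. Set against the same 290 cells at E85, the E125 cells with little AMH had an FSHR ratio of 0.714 (interval 0.581 to 0.880) and the cells with AMH a ratio of 3.79 (interval 3.13 to 4.62). SERPINE2 had ratios of 0.911 (interval 0.730 to 1.14) and 3.41 (interval 2.74 to 4.27). GJA1 was above E85 in both, at 1.73 (interval 1.46 to 2.07) and 2.46 (interval 2.02 to 2.99). GATM stood at 0.685 (interval 0.574 to 0.820) and 0.985 (interval 0.794 to 1.22). With little AMH, 0 of the 5 genes measured were past 2-fold in either direction, where 13.0% of 6875 genes were higher and 11.4% lower. With AMH, 3 of the 4 measured were higher (FSHR, GJA1 and SERPINE2), where 13.6% of 5331 genes were. Both comparisons share the E85 cells. These include sub-cluster 2, described below, with FSHR at 228 CPM. FSHR in E85 sub-cluster 0 alone stood at 67.5 CPM (interval 54.1 to 83.3). That interval overlapped the one of the E125 cells with little AMH (55.2 CPM, 49.1 to 61.9).

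The E85 class was mixed as well. Sub-cluster 0 (188 cells) was led by FST and the aromatase gene CYP19A1. Sub-cluster 1 (67 cells) was led by SPARCL1 and ZP3 and had a germ cell marker sum of 1217 CPM and a stromal one of 1352 CPM, where sub-cluster 0 had 188 and 134 CPM. Its median mitochondrial share was 1.46%, against 5.30% in sub-cluster 0. Sub-cluster 2 (35 cells) was led by genes such as PCLO, SYCN and KRT19, and its surface epithelium sum of 509 CPM came from 1 of 7 markers, KRT19. FST had 2 UMIs in sub-cluster 1 and 3 in sub-cluster 2, and CYP19A1 had 0 in both, so the FST and CYP19A1 signal of the class lay in sub-cluster 0. The 11 pregranulosa markers together summed to 689 CPM in sub-cluster 0, 259 CPM in sub-cluster 1 and 433 CPM in sub-cluster 2. In sub-cluster 2 that sum came from 6 of the 11, and AMH, CYP19A1, WNT6, LGR5 and BMP2 were at 0. Whether the cells of sub-clusters 1 and 2 belong to the class was not settled by these markers.

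FSHR was present in all 3 of these sub-clusters, at 67.5 CPM in sub-cluster 0, 37.0 CPM in 1 and 228 CPM in 2 (39 UMIs, interval 162 to 312). The ratio of sub-cluster 2 to 0 was 3.38 (interval 2.26 to 4.99) for FSHR and 3.29 (interval 2.25 to 4.73) for GATM, which stood at 258 against 78.4 CPM. These were 2 of the 4 genes measured there, where 3.75% of 3171 genes were at least 2-fold higher and 6.97% lower. Sub-cluster 1 was lower than 0 in GJA1 (24.6 against 100.8 CPM, ratio 0.244, interval 0.103 to 0.496) and SERPINE2 (24.6 against 72.9 CPM, ratio 0.338, interval 0.142 to 0.694), 2 of the 4 measured where 13.8% of 3356 genes were lower and 4.68% higher. The part of other cells' RNA in sub-cluster 1 was not tested. Without sub-cluster 1 the ratios of E125 to E85 were 1.27 for FSHR, 1.64 for GJA1, 1.31 for SERPINE2, 0.795 for GATM and 0.653 for ESR2. With sub-cluster 0 alone as the E85 side they were 1.62 for FSHR, 1.64 for GJA1, 1.25 for SERPINE2, 1.008 for GATM and 0.577 for ESR2, and NR5A2, with 0 UMIs there, was at least 3.89-fold higher at E125.

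Within the E125 cells with little AMH, sub-cluster 1 (188 cells, led by genes such as BMP3 and RELN) held more ESR2 than sub-cluster 0 (199 cells), at 35 and 14 UMIs (13.7 and 5.00 CPM, ratio 2.73, interval 1.43 to 5.49). The 49 UMIs together were under the minimum for a count. FSHR was lower there (ratio 0.618, interval 0.483 to 0.787) and GJA1 higher (1.67, interval 1.44 to 1.92). None of the 4 genes measured was at least 2-fold higher or lower, where 6.32% of 6110 genes were higher and 0.327% lower. All measured genes were shifted upward in this comparison, with a median log2 ratio of 0.30, beside 0.23 for the 4 members. FSHR and ESR2 were thus highest in different cells of the class at E125.

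**Figure D4:**
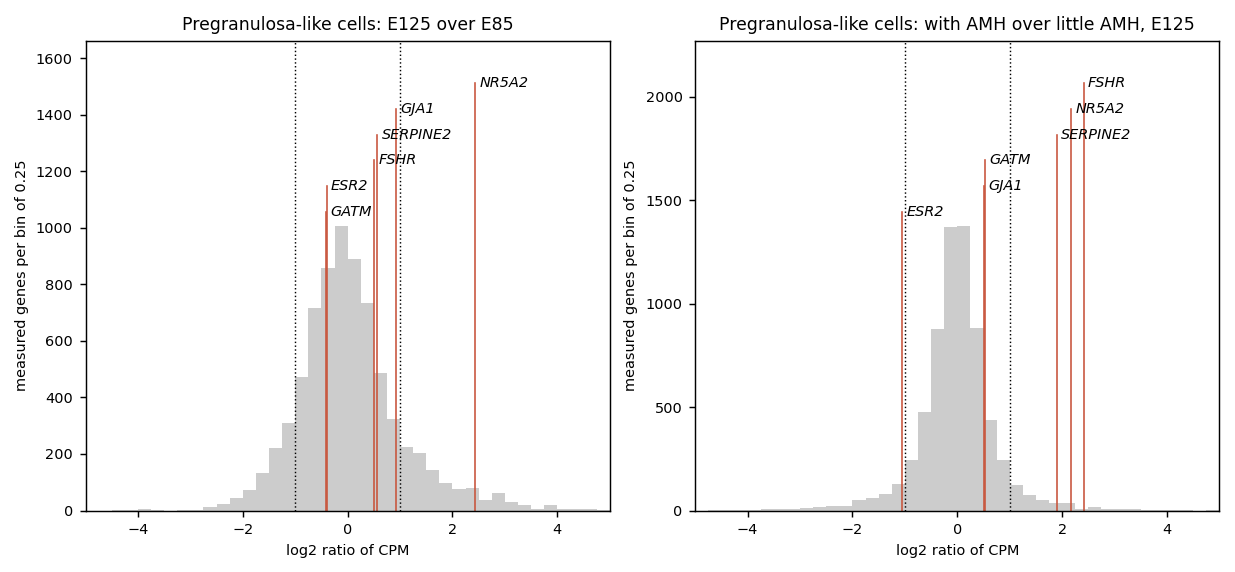
Number of measured genes per bin of 0.25 by log2 ratio of CPM in pregranulosa-like cells, E125 over E85 (left) and with AMH over little AMH at E125 (right), with the 6 measured members as red lines (their height is for legibility only) and 2-fold as dotted lines. On the left 1 member, NR5A2, is past 2-fold; on the right FSHR, NR5A2 and SERPINE2 are above it and ESR2 is just below -1.

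Partner genes of the members were counted from 6 lists by the same rule. Of 93 listed genes 80 were in the files and 36 were measured in pregranulosa-like cells, 5 of them higher and 3 lower at E125. Across all 7343 measured genes 13.9% were higher and 11.4% lower, so these shares are near the background and are no result about the lists. Among genes of gonadotropin receptor signalling 3 of 8 were higher and 0 lower. PRKAR2B, a regulatory subunit of the cyclic AMP-dependent kinase that acts below FSHR, went from 40.4 to 744 CPM (ratio 18.4, interval 14.6 to 23.6). INHBA, the activin subunit gene, went from 9.53 to 28.6 CPM (ratio 3.005, interval 1.83 to 5.26), and the adenylate cyclase ADCY9 from 7.29 to 17.1 CPM (ratio 2.35, interval 1.32 to 4.54). PRKAR1A, another subunit of the kinase, had a ratio of 1.13, and CYP19A1 one of 0.728. Of 9 nuclear receptors and their cofactors 2 were higher, the progesterone receptor PGR (ratio 2.52, interval 1.35 to 5.20) and the coactivator NCOA1 (2.55, interval 1.67 to 4.05).

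In the creatine list 2 of 3 genes were lower, where 11.4% of all measured genes were. GAMT, which methylates the product of GATM to creatine, went from 100.3 to 39.9 CPM (ratio 0.397, interval 0.328 to 0.482), and the creatine kinase CKB from 109 to 30.6 CPM (ratio 0.282, interval 0.231 to 0.344). The muscle creatine kinase CKM, the third measured gene of the list, stood at 17.9 CPM at E85 and 30.35 CPM at E125 (ratio 1.69, interval 1.16 to 2.54). Of 4 gap junction genes and partners (GJC1, CAV1, TJP1 and PANX1) and of 5 in plasminogen activation, 0 passed 2-fold. SERPINA5, another serpin and the most abundant of that list here, stood at 535 and 375 CPM (ratio 0.702).

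Between cells with and with little AMH 4 listed genes were higher and 6 lower of the 36, where 5.64% of all 6721 measured genes were higher and 6.38% lower. INHBA was 8.62 times as high with AMH (89.98 against 10.4 CPM, interval 6.28 to 12.0). DISP1, which releases hedgehog ligands from the cell, was 2.48 times as high and the creatine kinase CKM 2.23 times. The lower ones were HHIP, CKB, NR0B1 (ratio 0.166), CAV1 (0.315), PDE4D (0.316) and NR2F2 (0.348). HHIP, a membrane protein that binds hedgehog ligands and is a target of the pathway, had 2 UMIs in cells with AMH (1.26 CPM) and 122 in the others (22.7 CPM), with a ratio interval of 0.00662 to 0.204. CKB likewise had 2 UMIs against 211, with a ratio interval of 0.00385 to 0.117. PTCH1 did not show this split, at 23.3 CPM (interval 16.4 to 32.1) and 29.1 CPM (interval 24.7 to 34.0).

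Germ cell-like droplets at E125 also held members. These droplets were deep, with a median of 47240 UMIs, and 75 of the 135 had 20000 or more. FSHR had 77 UMIs in 38 of the 135 droplets, 76 of them in 37 of the 75 deep ones. ESR2 had 23 UMIs in 21 droplets, all of them deep, and SERPINE2 had 70 UMIs in 43 droplets. GATM had 655 UMIs in the deep droplets, at least 1 in each of the 75 (64.8 CPM, interval 59.9 to 70.0). GATM was thus found in every deep droplet at E125, while FSHR was seen in 37 and missing from the others.

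Pregranulosa markers were set beside these values. The FSHR level of germ cell-like droplets was 6.83% of that in pregranulosa-like cells at E125. Among other members this share was 27.8% for ESR2, 7.45% for SERPINE2, 3.22% for NR5A2, 1.23% for GJA1 and 81.75% for GATM. The same share was 0.390% for FST, 0.267% for AMH and 0.438% for CYP19A1, but 12.0% for INHA, 7.87% for KITLG and 14.6% for IRX3. These shares were thus not alike across pregranulosa genes, and which cells the UMIs of the members came from was not tested. At E85 germ cell-like droplets had 15 FSHR UMIs in 3 droplets, 13 of them in 1 droplet. No member measured in germ cell-like cells (3 of 8) was past 2-fold between stages, in a class where 19.5% of 9071 genes were higher and 17.6% lower, and 0 of 4 were in endothelial-like cells, where 19.1% of 7015 were higher and 7.94% lower.

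**Figure D5:**
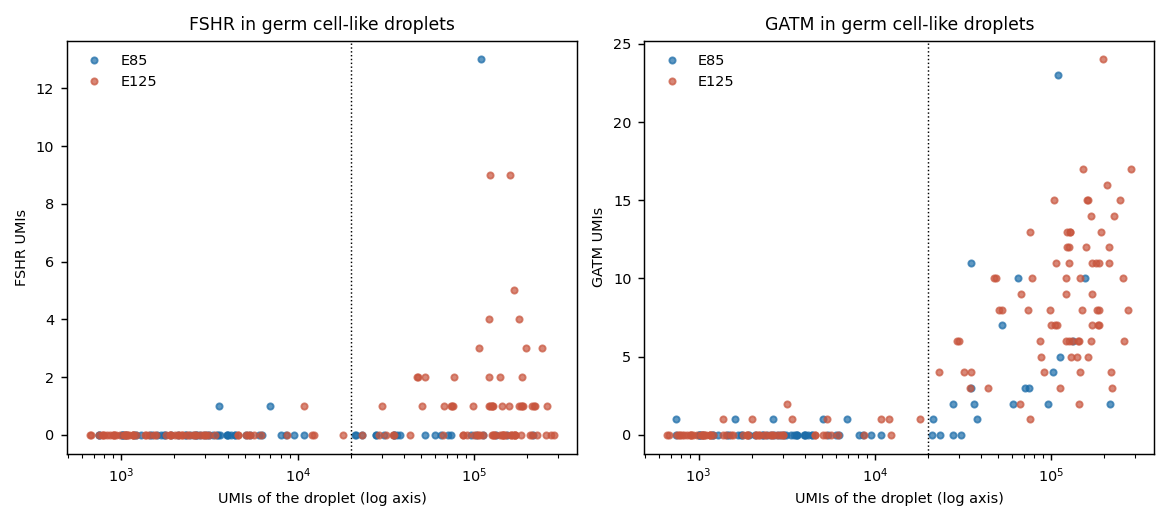
UMIs of FSHR (left) and GATM (right) in each germ cell-like droplet against the total UMIs of the droplet (log axis), at E85 (blue) and E125 (red); the dotted line is at 20000 UMIs. At E125 GATM is present in all 75 droplets past the line, FSHR in 37 of them, and 1 droplet at E85 holds 13 FSHR UMIs.

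The genes whose level over the 13 class and library combinations of 50 or more cells ran most like that of a member were found by Pearson's r of log2(CPM + 10) among 7244 candidates. These combinations share libraries and depth, and r is given as a description. For FSHR they were SYT6 (r = 0.976), BMP3 (0.965) and NXNL2 (0.953), each highest in pregranulosa-like cells at E125. For ESR2 they were KLK4 (0.994), TLL2 (0.973) and SERPINA5 (0.963), each highest in pregranulosa-like cells at E85. These likenesses are between classes and did not carry over to the sub-clusters at E125. SYT6 and BMP3 were among the leading genes of E125 sub-cluster 1, where FSHR was lowest (41.7 CPM) and ESR2 highest (13.7 CPM). KLK4 was among those of sub-cluster 0, where ESR2 stood at 5.00 CPM. For NR5A2 the most alike genes were MGLL (0.913), APBB2 (0.912) and RAPGEF5 (0.900), each highest in endothelial-like cells at E85. GJA1 ran most like ST6GALNAC6 (0.909), HIF1A (0.890) and CMBL (0.878), and SERPINE2 most like SEMA3C (0.907), ROBO2 (0.895) and COL11A1 (0.894). GATM had the weakest likeness, with LAMTOR2 (0.819), FAM241B (0.785) and STX3 (0.779).

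Scaling with TMM factors multiplies every ratio by the same number. It moved the median ratio of all genes by 0.25 on the log2 scale, and the split of 1021 genes higher and 835 lower became 1339 and 529 (71.7% higher). Under TMM the E125 to E85 ratios of the members were 1.68 for FSHR, 0.897 for ESR2, 6.39 for NR5A2, 2.25 for GJA1, 1.76 for SERPINE2 and 0.894 for GATM.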

How the data were processed

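Per the labels' protocols, cells freed by enzymes went through a 10x 3' version 3.1 droplet kit. The deposited values are raw UMI counts, whole numbers that nobody had normalized, for barcodes already called as cells with 500 or more UMIs. The submitters' processing notes name Cell Ranger 3.1, while per the file headers the matrices come from cellranger 6.0.0. A genome build is not given in the sources used here. These 8 genes and the lists were chosen with earlier results of these data known.

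Barcodes with under 500 genes or over 20% mitochondrial UMIs were left out (425 at E85, 809 at E125). Scrublet's own threshold called 2 and 1 doublets, so the highest scores at 0.8% per 1000 barcodes were removed (155 and 555). The libraries share 13 barcode sequences. Both libraries were clustered together without the 8 genes (scanpy 1.11.5, 2000 variable genes, 30 components, 15 neighbours, Leiden resolution 1). Each marker's CPM was divided by its top CPM over clusters, and a cluster was named for the class leading in the mean of these shares, if that mean was 0.3 or more, at least 3 markers reached 0.25 and the lead over the next class was 0.1; otherwise it stayed unnamed (278 and 553 cells). This naming rule, the sub-clustering at resolution 0.3 and the AMH division (sub-clusters at or above 25% of the highest AMH level count as with AMH) were chosen after clusters were seen, so a difference from the study may come from rebuilt names.

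Counts were summed per class and library. Intervals are exact Poisson for sums, exact conditional for ratios and Clopper-Pearson for shares, all at 95%. In ratios of sums and in the 2-fold rule a floor of 3 UMIs stands for any lower sum. No test or p-value was possible with 1 library per stage. Named genes are the 8 members, listed genes past 2-fold plus up to 3 abundant ones per list, and the 3 most alike genes per member. TMM came from edgeR 4.0.16. Summing and ratios were tested on simulated counts. Of the listed genes past 2-fold, 1 is not reported here.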

Additional observations from a re-analysis of the deposited data

Results flagged for a closer look

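FSHR in pregranulosa-like cells moved in opposite directions from E85 to E125 in the 2 sets of E125 cells: the ratio was 0.714 in the 387 cells with little AMH and 3.79 in the 185 cells with AMH, both set against the same 290 cells at E85. It stands out because the sets lie on either side of 1, with intervals that do not overlap. The lower side held against all 290 cells, which include E85 sub-cluster 2 (228 CPM), whose place in the class was not settled. Against E85 sub-cluster 0 alone (67.5 CPM, interval 54.1 to 83.3) the cells with little AMH (55.2 CPM, interval 49.1 to 61.9) overlapped, so a fall cannot be read there. There is 1 library per stage, so the difference was not tested.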

How the results depend on the processing

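With 1 library per stage every value lacks a spread between animals, depth limits ESR2, NR5A2 and the ligands, and class names are rebuilt. At resolution 0.5 no E85 cluster was pregranulosa-like, so that setting gave no ratio. No paired analysis was possible because each stage has 1 library. Over 14 alternatives the E125 to E85 ratio ranged from 0.714 to 1.85 for FSHR, 0.572 to 1.77 for ESR2 and 1.58 to 3.05 for GJA1. It ranged from 0.911 to 1.82 for SERPINE2 and 0.667 to 1.055 for GATM. For NR5A2 it ranged from 2.12, a lower bound at the floor of 3 UMIs, to 9.58. Of those 84 values 73 stayed within the counting interval, 7 moved beyond it and 4 turned direction: FSHR 0.714 and SERPINE2 0.911 with little AMH alone, and GATM at 1.055 with libraries clustered separately and at 1.008 with E85 sub-cluster 0 alone. ESR2, whose interval includes no change, also crossed 1, at 1.77 with the mean over cells. Of 24 ratios of cells with AMH over little AMH, examined after seeing the data, 18 stayed within, 5 moved and 1 turned, GJA1 at 0.835 when thinned to 2000 UMIs. Leaving out E85 sub-cluster 1, and using E85 sub-cluster 0 alone, were also chosen after seeing the data. The count of members at least 2-fold higher, 1, became 2 with TMM and with the mean over cells (GJA1 joined) and 0 with little AMH alone; the count lower was 0 under all 15 alternatives run. Genes higher, 1021, became 534 when thinned, and genes lower, 835, became 529 with TMM, 298 when thinned and 2692 with no minimum. Listed partner genes higher, 5, became 2 when thinned, and lower, 3, became 14 with no minimum. The cause of these shifts was not tested, except that fewer UMIs or no minimum change how many genes are measured (12263 with no minimum, where 3 UMIs stand for a lower sum).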
